A study of Mus musculus with 18 samples.

Results

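Matrix metalloproteinases (MMPs), ADAMTS proteases and their tissue inhibitors (TIMPs) were followed in GC1spg cells, a mouse line made from type B spermatogonia. The genes were all protein-coding rows of the deposited gene table whose symbols begin with Mmp and a number, or are Adamts or Timp followed by a number alone. This gave 42 of 31643 genes, namely 20 Mmp, 18 Adamts and 4 Timp genes. The study asked how busulfan (Bu), an alkylating chemotherapy drug, acts on these cells. The labels add an siRNA against TGR5, a bile acid receptor (gene Gpbar1), and the question it served is not given in the sources used here. Poly(A) RNA was sequenced from 18 libraries in 4 groups. The siGFP DMSO group (5 libraries) was transfected with a control siRNA against GFP and received the vehicle for 24 h, and the siGFP Bu group (4 libraries) had the same siRNA and 200 μM Bu for 24 h. The siTGR5 DMSO group (5 libraries) and the siTGR5 Bu group (4 libraries) received an siRNA against TGR5 and the vehicle or Bu, and their dose and time are not given in the sources used here. All groups are transfected cells of 1 immortalized line, so no group is an untransfected control.

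MMPs are zinc proteases that cut collagens, gelatin, proteoglycans and other matrix proteins, and most are made as inactive proenzymes. The membrane-type MMPs stay anchored at the cell surface, where MMP14 activates proMMP2. ADAMTS proteases are secreted, and their subgroups trim procollagen, cleave proteoglycans such as versican and aggrecan, or associate with fibrillin microfibrils. The 4 TIMPs bind to the active site of these proteases, and TIMP3 is the one known for blocking ADAMTS aggrecanases. In the testis, matrix proteases and TIMPs are known for their part in remodelling the basement membrane and the junctions between Sertoli and germ cells.

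The libraries held 24745523 to 49638166 counts each. Gpbar1, the siRNA target, lay at 0.443 to 0.864 CPM (counts scaled to a common library size with TMM factors over all libraries) in siGFP DMSO and at 0.111 to 0.491 CPM in siTGR5 DMSO, which overlap (log2 fold change -0.99, SE 0.28, adjusted p = 0.0135). In Bu it lay at 0.210 to 0.620 CPM in siGFP cells and at 0.288 to 0.401 CPM in siTGR5 cells (log2 fold change -0.38, SE 0.34, adjusted p = 0.425), so with Bu the knockdown did not pass the test. Of 15 germ cell markers, 3 (Gfra1, Id4 and Uchl1) reached a mean of 1 CPM, and Ddx4, Dazl, Zbtb16 and Stra8 stayed at or under 0.140 CPM in every library. Fibroblast-type transcripts were abundant, with Col1a1 at 2299.7 to 3501 CPM and Dcn at 1536 to 1972 CPM. In 7 libraries (siGFP DMSO replicates 1 and 5, siGFP Bu 2 and 4, siTGR5 DMSO 4 and siTGR5 Bu 1 and 3), 12 rod photoreceptor transcripts summed to 6.62 to 103 CPM, against 1.09 to 2.17 CPM in the other 11. Nothing in the labels says that replicates were separate cultures, so p-values measure only the spread between these libraries, which may be technical. In bulk RNA, fewer cells of a type and less RNA per cell cannot be told apart.

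Summed over the family, inhibitor transcripts were far more abundant than protease transcripts in all 4 groups. The authors' scale is normalized counts per kilobase of the median length of a gene's transcripts. On it, Timp2 (18-library mean 43686) and Timp3 (38298) came first, followed by the gelatinase Mmp2 (5459), the hyalectanase Adamts1 (4169) and Mmp14 (2939.8). Mmp23, Mmp11, Timp1 and Adamts2 formed the next group at 1888, 1716, 1703 and 1514, and their ranges over the 18 libraries overlapped. This order depends on the lengths used, which were 1006.5 bases for Mmp2, 2338 for Adamts1 and 779 for Mmp14. In CPM, which are not divided by length, Adamts1 (mean 291.6) stood above Mmp2 (164.4). The 4 Timp genes together carried 78.2% to 81.3% of the summed signal per kilobase of the 42 genes, as group means. The ratio of summed Timp to summed protease transcripts was 3.74 ± 0.071 (SD, n = 5) in siGFP DMSO, 3.59 ± 0.154 (n = 4) in siGFP Bu, 4.35 ± 0.157 (n = 5) in siTGR5 DMSO and 4.08 ± 0.100 (n = 4) in siTGR5 Bu.

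At the other end, 15 of the 42 genes had a mean under 1 CPM over all libraries, the highest of them at 0.420 CPM. The test (edgeR's quasi-likelihood fit, p adjusted by Benjamini-Hochberg over all genes, with a limit of 0.05 for a call) reached 30 of the 42 genes in at least 1 comparison. The 12 that it never reached were Adamts8, Adamts12, Adamts13, Adamts17, Adamts18, Mmp8, the gelatinase Mmp9, Mmp12, Mmp20, Mmp21, Mmp25 and Timp4, with 0 to 95 counts each summed over all libraries. Mmp20, the enamel protease, had no count in any library. Of the 30 tested genes, 27 were called in at least 1 comparison, and these counts describe only genes that passed the filter on low counts. The share of all genes called in at least 1 comparison is not given here, so the count cannot be set against it. Between 28.1% and 30.7% of all tested genes were called in each Bu or siRNA comparison, and 1.37% in the difference of the Bu effects.

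**Figure D1:**
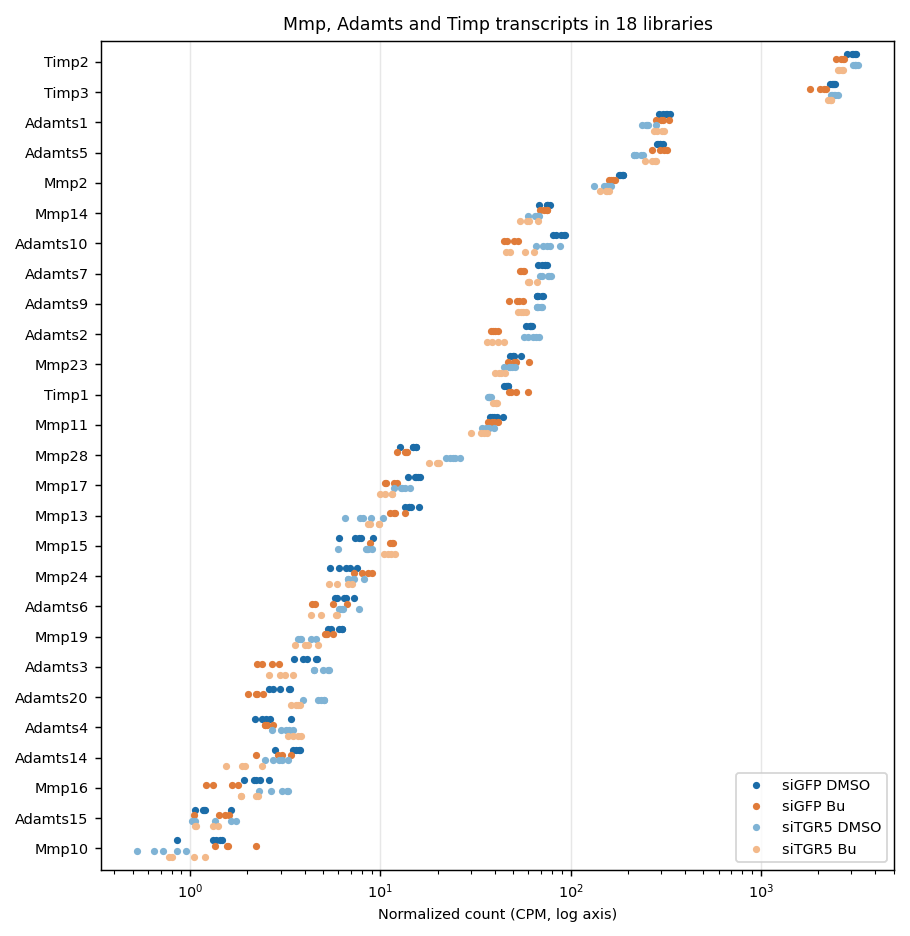
Normalized counts (CPM, log axis) of the 27 Mmp, Adamts and Timp genes whose mean reached 1 CPM, 1 point per library, coloured by group. Timp2 and Timp3 lie between 1827 and 3262 CPM, while Mmp10 and Adamts15 lie near 1 CPM. CPM are not divided by transcript length, so the order of genes is not an order of molar level.

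Of the 20 Mmp genes, 7 (Mmp13, Mmp12, Mmp3, Mmp10, Mmp8, Mmp27 and Mmp20) lie side by side on the plus strand of chromosome 9, within 402.5 kb at chr9:7272514-7674979 (GRCm38). They encode collagenases, stromelysins and their relatives. The 100 bases before the transcription start of Mmp13, Mmp10 and Mmp3, the members of this cluster called in a comparison, are shown with those of Mmp27, a neighbour that was tested and not called, and of Adamts2, which follows a different pattern below. The sequences are RefSeq's (GRCm38.p6), 5′ to 3′ on the plus strand, and capitals mark 2 words. These are the binding motif of the transcription factor AP-1 (TGAGTCA, on either strand) and TATAAA (on the gene's strand). TATAAA is the word of a core promoter element that sets the start site in many inducible genes, and a match alone does not show that use.
Mmp13 (chr9:7272414-7272513, + strand): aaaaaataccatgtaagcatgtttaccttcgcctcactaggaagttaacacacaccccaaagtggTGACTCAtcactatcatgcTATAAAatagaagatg
Mmp10 (chr9:7502242-7502341, + strand): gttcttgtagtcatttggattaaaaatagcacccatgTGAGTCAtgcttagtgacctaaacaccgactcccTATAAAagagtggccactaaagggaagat
Mmp3 (chr9:7445722-7445821, + strand): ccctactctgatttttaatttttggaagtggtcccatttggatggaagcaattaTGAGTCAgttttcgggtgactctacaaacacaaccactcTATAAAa
Mmp27 (chr9:7571296-7571395, + strand): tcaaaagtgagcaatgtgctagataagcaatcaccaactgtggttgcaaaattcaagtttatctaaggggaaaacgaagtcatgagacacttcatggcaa
Adamts2 (chr11:50601985-50602084, + strand): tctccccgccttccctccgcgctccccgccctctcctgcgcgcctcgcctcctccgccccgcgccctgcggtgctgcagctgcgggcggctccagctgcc
The motif and the genes were chosen after the expression values were seen. In the Mmp13, Mmp10 and Mmp3 windows both words are present, with the AP-1 motif ending upstream of TATAAA. The TATAAA word begins 16, 29 and 7 bases before the annotated start in Mmp13, Mmp10 and Mmp3, so its place differs between them. Whether it sets the start of these genes was not tested. Of all 32851 RefSeq promoter windows of 300 bases, 5.20% hold the AP-1 motif, 8.32% hold TATAAA and 0.624% hold both. Windows were given for 29 of the 42 genes, and apart from these 3 genes only an Mmp12 window held both words. GC content was 43.7% in the Mmp13 window, 37.7% in Mmp10, 40.0% in Mmp3, 38.7% in Mmp27 and 77.3% in Adamts2, against a median of 52.7% over all windows.

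The first comparison asked what Bu did to these genes in control cells. In siGFP cells 15 of 30 tested genes changed, 3 upwards (Mmp15, Mmp24 and Timp1) and 12 downwards, while 28.1% of all 14304 tested genes were called (14.3% higher and 13.8% lower). In siTGR5 cells 17 of 29 changed, 4 upwards (Adamts1, Adamts5, Mmp15 and Timp1) and 13 downwards, against 30.7% of 14372 genes (15.5% higher and 15.2% lower). The median log2 fold change of the tested members was -0.15 in siGFP cells and -0.16 in siTGR5 cells, where the median of all genes was 0.00 in both. Among the ADAMTS proteases 6 of 13 were lower and none higher in siGFP cells, and 8 of 13 were lower and 2 higher in siTGR5 cells. The 2 comparisons share no library.

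**Figure D2:**
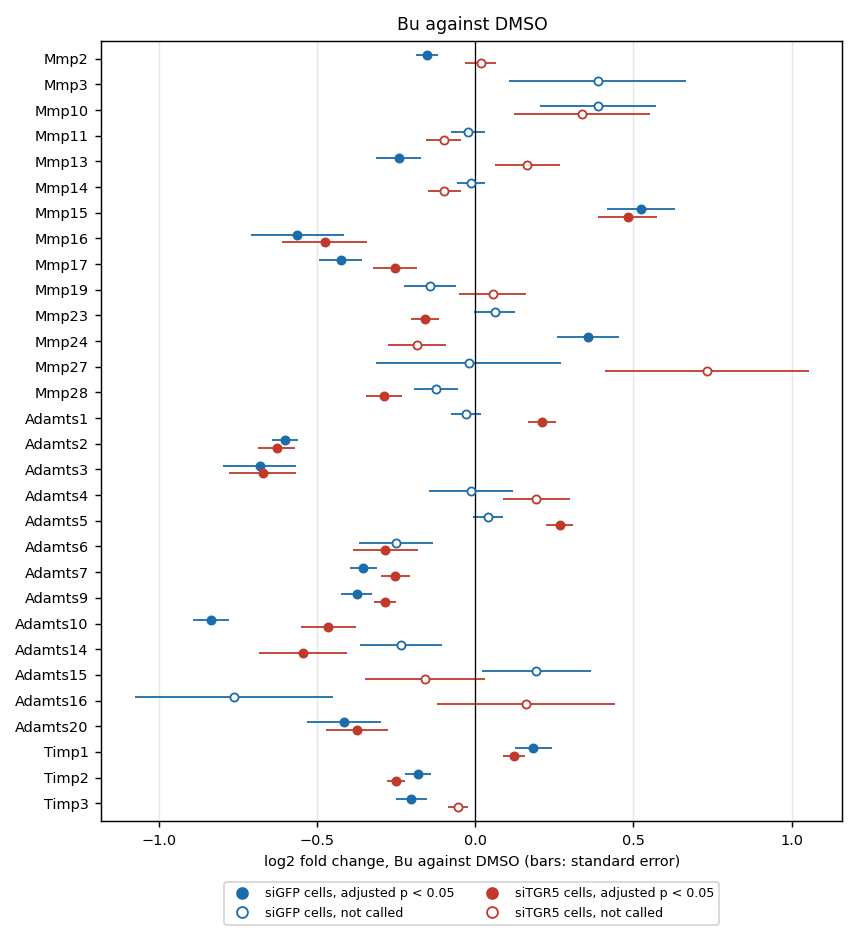
Log2 fold change of Bu against DMSO for the 30 tested genes in siGFP cells (blue) and siTGR5 cells (red), with standard errors as bars. Filled points passed an adjusted p of 0.05, and most of them lie left of 0, with Mmp15 and Timp1 to the right in both cell populations.

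The largest decrease in siGFP cells was that of Adamts10 (chr17:33524204-33553782), a protease that associates with fibrillin microfibrils. It stood at 80.7, 88.98, 92.2, 83.9 and 93.1 CPM in the siGFP DMSO libraries (replicates in the order of their numbers, here and below) and at 46.5, 50.4, 44.8 and 52.9 CPM in siGFP Bu. Each Bu library was lower than every DMSO library, and its fitted level fell by 43.96% (log2 fold change -0.84, SE 0.06, adjusted p = 1.67e-07). In siTGR5 cells it stood at 75.02, 77.5, 65.7, 71.7 and 88.1 CPM with DMSO and at 64.4, 48.3, 45.8 and 57.4 CPM with Bu, again without overlap (log2 fold change -0.46, SE 0.09, adjusted p = 0.00063). The other fibrillin-associated member, Adamts6, was at 5.79 to 7.26 CPM in siGFP DMSO and 4.36 to 6.68 CPM in siGFP Bu, which overlap (log2 fold change -0.25, SE 0.12, adjusted p = 0.128). In siTGR5 cells Adamts6 fell (log2 fold change -0.28, SE 0.10, adjusted p = 0.0451), but without siTGR5 DMSO replicate 2, or siTGR5 Bu replicate 2 or 3, its log2 fold change lay between -0.26 and -0.21 with adjusted p of 0.105 to 0.144.

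The procollagen N-proteinases, which cut the amino-terminal propeptide from fibrillar procollagens, also fell. Adamts2 (chr11:50602084-50807573) stood at 61.3, 61.9, 62.4, 61.2 and 58.7 CPM in siGFP DMSO and at 41.6, 40.3, 39.2 and 38.2 CPM in siGFP Bu, and in siTGR5 cells it went from 68.5, 63.5, 60.1, 65.6 and 57.2 CPM to 44.7, 41.6, 38.6 and 36.5 CPM. In both cell populations the Bu libraries lay wholly below the DMSO libraries, and its fitted level fell by 34.1% in siGFP cells (log2 fold change -0.60, SE 0.04, adjusted p = 1.54e-07) and by 35.3% in siTGR5 cells (log2 fold change -0.63, SE 0.06, adjusted p = 4.17e-07). Adamts3 behaved alike at a lower level, from a range of 3.51 to 4.65 CPM to a range of 2.25 to 2.92 CPM in siGFP cells (log2 fold change -0.68, SE 0.11, adjusted p = 0.000531) and from a range of 4.47 to 5.38 CPM to a range of 2.59 to 3.48 CPM in siTGR5 cells (log2 fold change -0.67, SE 0.11, adjusted p = 0.000126). Adamts14 fell in siTGR5 cells, from a range of 2.47 to 3.25 CPM to a range of 1.54 to 2.38 CPM (log2 fold change -0.54, SE 0.14, adjusted p = 0.00669). In siGFP cells its libraries overlapped, at 2.79 to 3.78 CPM with DMSO and 2.23 to 3.38 CPM with Bu (log2 fold change -0.23, SE 0.13, adjusted p = 0.199).

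The proteoglycanases were divided. Adamts9, a versican-cleaving protease, fell from a range of 66.6 to 71.8 CPM to a range of 47.3 to 56.4 CPM in siGFP cells (log2 fold change -0.37, SE 0.05, adjusted p = 6.11e-05) and from a range of 66.4 to 70.9 CPM to a range of 53.02 to 57.99 CPM in siTGR5 cells (log2 fold change -0.28, SE 0.04, adjusted p = 1.2e-05). Its close relative Adamts20, the gene of the mouse belted coat mutation, fell by 24.97% (log2 fold change -0.41, SE 0.12, adjusted p = 0.0153) and 22.8% (log2 fold change -0.37, SE 0.10, adjusted p = 0.00776), and in neither population did Bu and DMSO libraries overlap. Adamts7, which cleaves cartilage oligomeric matrix protein, fell by 21.7% in siGFP cells (log2 fold change -0.35, SE 0.04, adjusted p = 2.42e-05) and 16.03% in siTGR5 cells (log2 fold change -0.25, SE 0.05, adjusted p = 0.00042). Against these, Adamts1 and Adamts5, the most abundant aggrecan- and versican-cleaving members here, were not called lower. Adamts5 stood at 294, 288, 296, 285 and 307 CPM in siGFP DMSO and 297, 268, 311 and 322 CPM in siGFP Bu, an overlap (log2 fold change 0.04, SE 0.05, adjusted p = 0.561), and at 215, 239.6, 235, 221 and 216 CPM in siTGR5 DMSO and 245, 279, 269 and 283 CPM in siTGR5 Bu, where every Bu library was higher (log2 fold change 0.27, SE 0.04, adjusted p = 0.000146). Adamts1 rose in siTGR5 cells (log2 fold change 0.21, SE 0.04, adjusted p = 0.00172), with libraries that overlapped at 238 to 282 CPM and 274 to 311 CPM, and its value in siGFP cells was near 0 (log2 fold change -0.03, SE 0.05, adjusted p = 0.697). Adamts4 and Adamts15, 2 further aggrecanases, passed the test with Bu in neither population, with log2 fold changes of -0.01 and 0.19 for Adamts4 and 0.19 and -0.16 for Adamts15.

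Of the 6 membrane-type MMPs 5 were tested, all but Mmp25, and these 5 did not share a direction. Mmp15 (chr8:95352268-95375080, MT2-MMP) stood at 7.95, 9.099, 7.399, 7.75 and 6.08 CPM in siGFP DMSO and 11.6, 11.6, 11.2 and 8.87 CPM in siGFP Bu, and at 8.38, 9.04, 8.51, 8.58 and 6.004 CPM and 11.99, 11.4, 10.5 and 10.9 CPM in the corresponding siTGR5 groups. It rose by 43.7% (log2 fold change 0.52, SE 0.11, adjusted p = 0.00231) and 39.7% (log2 fold change 0.48, SE 0.09, adjusted p = 0.000846), with siGFP Bu replicate 4 inside the range of its DMSO libraries and no overlap in siTGR5 cells. Mmp16 (MT3-MMP) went the other way, from 2.59, 1.91, 2.17, 2.32 and 2.21 CPM to 1.79, 1.21, 1.31 and 1.66 CPM in siGFP cells (log2 fold change -0.56, SE 0.15, adjusted p = 0.01) and from 3.27, 2.296, 2.65, 3.22 and 3.06 CPM to 2.27, 2.23, 1.84 and 1.86 CPM in siTGR5 cells (log2 fold change -0.48, SE 0.14, adjusted p = 0.0128), without overlap. Mmp17, the GPI-anchored MT4-MMP, fell from a range of 13.9 to 16.2 CPM to a range of 10.5 to 12.2 CPM (log2 fold change -0.42, SE 0.07, adjusted p = 0.000348) and from a range of 11.9 to 14.4 CPM to a range of 9.94 to 11.5 CPM (log2 fold change -0.25, SE 0.07, adjusted p = 0.0103). Mmp14 (MT1-MMP), the most abundant of the 5 per kilobase, lay at 68.6 to 78.04 CPM and 69.01 to 75.3 CPM in siGFP cells (log2 fold change -0.01, SE 0.04, adjusted p = 0.861) and did not pass the test in siTGR5 cells (log2 fold change -0.10, SE 0.05, adjusted p = 0.177).

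**Figure D3:**
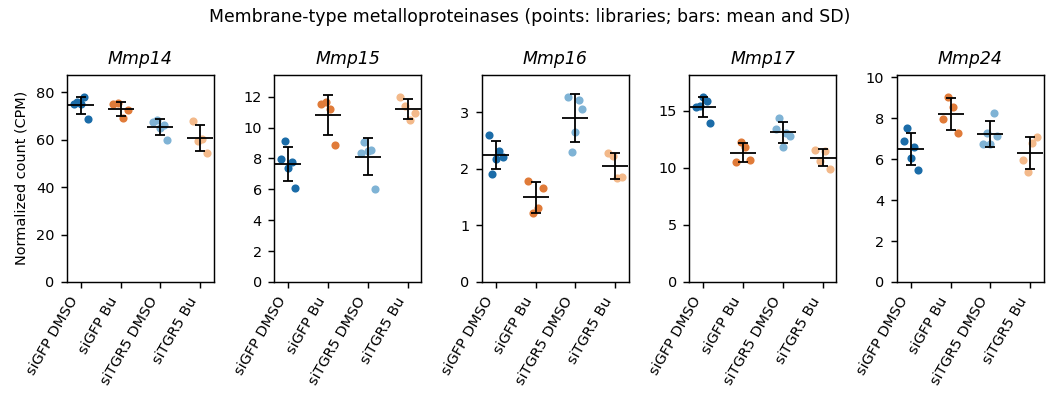
Normalized counts (CPM, linear axes from 0) of the 5 tested membrane-type MMPs by group (Mmp25, which was not tested, is left out), 1 point per library, with the mean and SD in black. With Bu, Mmp15 is higher and Mmp16 and Mmp17 are lower in both siRNA populations, whereas Mmp24 passed the test with Bu in siGFP cells and not in siTGR5 cells, and Mmp14 passed between the siRNAs and not with Bu.

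Mmp24 (MT5-MMP, chr2:155775342-155818366) stood at 6.91, 7.53, 6.08, 6.58 and 5.45 CPM in siGFP DMSO and 7.97, 9.06, 8.58 and 7.27 CPM in siGFP Bu, and it rose (log2 fold change 0.36, SE 0.10, adjusted p = 0.0137) although siGFP DMSO replicate 2 lay above siGFP Bu replicate 4. In siTGR5 cells it stood at 6.74, 7.28, 6.77, 8.25 and 7.14 CPM with DMSO and 5.94, 5.39, 6.78 and 7.08 CPM with Bu, overlapping, and its fitted change had the opposite sign without passing the test (log2 fold change -0.18, SE 0.09, adjusted p = 0.146). The exons of Mmp24 share 637 bases (13.6% of their length) with BC029722 on the opposite strand, whose median was 3382 counts per library against 248 for Mmp24. BC029722 itself had a log2 fold change of -0.13 with Bu in siGFP cells (SE 0.08, adjusted p = 0.236). The library kit keeps the strand, but whether the counting used it is not given in the sources used here, so the counts of the shared bases are uncertain.

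Of the secreted MMPs, Mmp2 and Mmp13 were called with Bu in siGFP cells and Mmp28 in siTGR5 cells. Mmp2 went in siGFP cells from 185, 181, 189.8, 189.7 and 181 CPM to 163, 159, 166 and 172 CPM, and its fitted level fell by 10.02% without overlap (log2 fold change -0.15, SE 0.04, adjusted p = 0.00551), and lay at 132 to 164 CPM and 144 to 158 CPM in siTGR5 cells (log2 fold change 0.02, SE 0.05, adjusted p = 0.825). The collagenase Mmp13 fell in siGFP cells, from a range of 13.4 to 15.9 CPM to a range of 11.2 to 13.5 CPM, with siGFP Bu replicate 2 above the lowest DMSO library (log2 fold change -0.24, SE 0.07, adjusted p = 0.0188). Without siGFP DMSO replicate 1 or siGFP Bu replicate 4 its adjusted p lay between 0.0503 and 0.0616 (log2 fold change -0.21 to -0.20). Mmp28 (epilysin) and Mmp23, which carries a type II transmembrane anchor, fell in siTGR5 cells, with log2 fold changes of -0.29 (SE 0.06, adjusted p = 0.000847) and -0.16 (SE 0.04, adjusted p = 0.0125). Mmp11, Mmp19, Mmp10, Mmp3 and Mmp27 passed the test with Bu in neither population, some at sizes above those of called members. Mmp10 had log2 fold changes of 0.39 (SE 0.18, adjusted p = 0.128) in siGFP cells and 0.34 (SE 0.22, adjusted p = 0.257) in siTGR5 cells. Mmp27 had -0.02 (SE 0.29, adjusted p = 0.969) and 0.73 (SE 0.32, adjusted p = 0.0967). Mmp3 had 0.39 (SE 0.28, adjusted p = 0.334) in siGFP cells and was left out by the count filter in siTGR5 cells. The low member Adamts16, at 0.341 to 0.756 CPM in siGFP DMSO and 0.2105 to 0.394 CPM in siGFP Bu, was not called either (log2 fold change -0.76, SE 0.31, adjusted p = 0.0818).

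The inhibitors were split as well. Timp2 (chr11:118301069-118355740), which also forms the complex with MMP14 that activates proMMP2, stood at 3115, 3021, 3161, 3053 and 2830.3 CPM in siGFP DMSO and 2649, 2708, 2749 and 2491 CPM in siGFP Bu, and fell by 11.8% (log2 fold change -0.18, SE 0.04, adjusted p = 0.00455). In siTGR5 cells it went from a range of 3057 to 3262 CPM to a range of 2557 to 2703 CPM (log2 fold change -0.25, SE 0.03, adjusted p = 4.53e-06), and in both populations the groups did not overlap. Timp3 fell in siGFP cells, from 2435, 2367, 2309, 2406 and 2466 CPM to 2218, 1827, 2052 and 2152 CPM without overlap (log2 fold change -0.20, SE 0.05, adjusted p = 0.00583), and lay at 2338 to 2561 CPM and 2266 to 2354 CPM in siTGR5 cells (log2 fold change -0.05, SE 0.03, adjusted p = 0.191). Timp1 was the 1 tested inhibitor called higher, from 47.1, 45.9, 46.2, 44.7 and 47.04 CPM to 51.9, 59.5, 47.4 and 48.6 CPM in siGFP cells (log2 fold change 0.18, SE 0.06, adjusted p = 0.03) and from a range of 36.7 to 38.1 CPM to a range of 39.1 to 41.1 CPM in siTGR5 cells (log2 fold change 0.12, SE 0.04, adjusted p = 0.0144), again without overlap. Its siGFP call was lost when siGFP DMSO replicate 1, 2, 3 or 4, or siGFP Bu replicate 1 or 2, was left out (log2 fold change 0.11 to 0.18, adjusted p 0.0505 to 0.0777), and its siTGR5 call without siTGR5 Bu replicate 4 (0.11, adjusted p = 0.0549).

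Without the 7 libraries that held rod transcripts, 3 DMSO and 2 Bu libraries remained in siGFP cells, and 9 of the 15 calls were kept. Those of Adamts20, Mmp13, Mmp16, Mmp24, Timp1 and Timp3 were lost, with unchanged signs (log2 fold change -0.43, -0.22, -0.43, 0.31, 0.14 and -0.13) and adjusted p of 0.0619 to 0.154. In siTGR5 cells, where 4 DMSO and 2 Bu libraries remained, 13 of the 17 calls were kept, and Adamts6, Adamts20, Mmp16 and Timp1 were lost (adjusted p 0.083 to 0.115). Summed transcripts of 17 nuclear-retained RNAs, a sign of RNA quality, lay at 1284 to 1634 CPM in siGFP DMSO and 781 to 1075 CPM in siGFP Bu, and at 1254 to 1922 CPM in siTGR5 DMSO and 947 to 1202 CPM in siTGR5 Bu. The most abundant were Malat1 (mean 616 CPM), Tug1 (243 CPM) and Neat1 (197 CPM). These RNAs did not move together, since of 10 tested 5 were lower and 1 higher with Bu in each population. In siGFP cells Malat1 and Neat1 were lower, Pvt1 was higher (log2 fold change 0.26, adjusted p = 0.00527), and Tug1 was near 0 (adjusted p = 0.939). The 8 peritubular and fibroblast markers, of which Lum and Myh11 stayed at or under 0.1797 CPM, summed to 5123 to 5335 CPM in siGFP DMSO and 4016 to 4515 CPM in siGFP Bu, and to 4444 to 4707 CPM and 4264 to 4580.2 CPM in the siTGR5 groups. Most of that sum is Col1a1 and Dcn, and the markers did not move together, since in siGFP cells 3 of the 5 tested were lower with Bu (Col1a1, Dcn and Pdgfrb), Acta2 was higher (log2 fold change 0.39, adjusted p = 0.000103) and Pdgfra had a log2 fold change near 0 (adjusted p = 0.983), while in siTGR5 cells Pdgfra alone was called (lower). The 7 Sertoli markers in the table, mostly Wt1, summed to 252 to 287 CPM in siGFP DMSO and 219 to 235 CPM in siGFP Bu, and to 266 to 280.4 CPM and 233 to 268 CPM in the siTGR5 groups, and Wt1 and Inha were lower with Bu in both populations. Of 3 tested macrophage markers, Cd14 was higher with Bu in both populations (log2 fold change 0.70 and 0.42) and Lyz2 in siTGR5 cells (0.89), while the defining markers Ptprc and Csf1r stayed at or under 0.164 CPM. The 5 macrophage markers in the table summed to 60.9 to 69.99 CPM and 65.8 to 80.7 CPM in siGFP cells, and to 52.2 to 59.9 CPM and 59.3 to 63.04 CPM in siTGR5 cells. The part of these markers in the changes of the proteases was not tested.

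Several of the members that fell are long genes, a description made after their values were seen. Among all tested genes spanning over 200 kb, 37.2% were lower and 3.64% higher with Bu in siGFP cells, against 10.1% and 12.9% of those under 10 kb. In siTGR5 cells these shares were 63.8% and 2.98% over 200 kb, and 9.51% and 12.8% under 10 kb. Over 200 kb there were 4 members, Mmp16 (266 kb), Adamts6 (209 kb), Adamts3 (206 kb) and Adamts2 (205 kb), of which 3 were lower in siGFP cells and all 4 in siTGR5 cells. Their median log2 fold changes were -0.58 and -0.55, where the medians of all genes over 200 kb were -0.15 and -0.22. Adamts10, with the largest decrease in siGFP cells, spans 29.6 kb, a class (10 to 50 kb) in which 12.8% of genes were lower, and Mmp15 and Mmp24, which rose, span 22.8 and 43.02 kb.

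**Figure D4:**
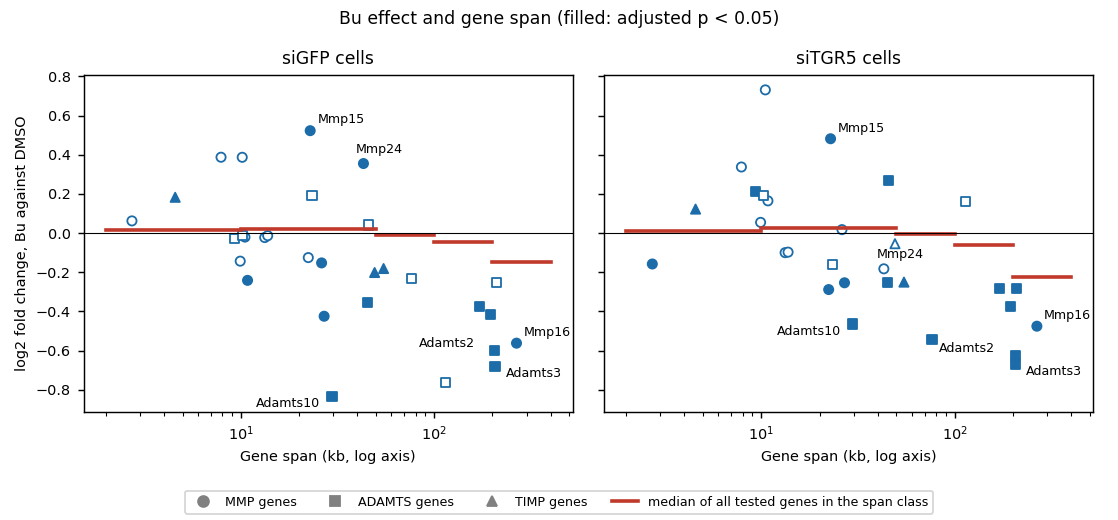
Log2 fold change of Bu against DMSO by gene span (kb, log axis) in siGFP (left) and siTGR5 cells (right), with MMP genes as circles, ADAMTS genes as squares and TIMP genes as triangles, filled at an adjusted p under 0.05. Red lines are the medians of all tested genes in 5 span classes, the outer 2 of which are open-ended, and fall from 0.02 under 10 kb to -0.15 over 200 kb in siGFP cells.

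Other genes of the protease system were listed by role with earlier results of these data known, and their counts stand against 13.8% lower and 14.3% higher of all tested genes with Bu in siGFP cells, and 15.2% and 15.5% in siTGR5 cells. Of 5 tested ADAMTS-like proteins, which lack a protease domain, 3 were lower and none higher with Bu in siGFP cells (Papln -0.66, Adamtsl1 -0.80 and Thsd4 -0.22 as log2 fold changes, adjusted p 0.000276, 0.000875 and 0.0421), and 4 were lower in siTGR5 cells. Of 19 tested activators, cofactors and other inhibitors, 4 were higher and 8 lower in siGFP cells, and in siTGR5 cells 3 of 20 were higher and 5 lower. The proprotein convertase Pcsk6 (-0.55, adjusted p = 1.34e-07) and the clearance receptor Lrp1 (-0.52, adjusted p = 0.000335) had the smallest p in siGFP cells. Of 22 tested substrates, which include the member Mmp2 and share Lrp1 and Cd44 with the list of activators and cofactors, 13 were lower and 3 higher in siGFP cells, led by Col4a2 (-0.38), Col1a2 (-0.38) and Col1a1 (-0.39), while 6 were lower and 4 higher in siTGR5 cells. Versican (Vcan), the substrate of Adamts1, Adamts5, Adamts9 and Adamts20, was higher with Bu in both populations (log2 fold change 0.56, SE 0.12, adjusted p = 0.00232 in siGFP cells and 0.57, SE 0.08, adjusted p = 3.64e-05 in siTGR5 cells). Of 11 tested other metalloproteinases 1 was lower in siGFP cells, Adam33 (-1.66, SE 0.43, adjusted p = 0.00982). In siTGR5 cells 3 were lower, Adam10 (-0.10), Ece1 (-0.11) and Adam15 (-0.12), with adjusted p of 0.00719 to 0.0095, and Adam33 was not called (-0.76, SE 0.30, adjusted p = 0.0598).

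The next comparison asked what the siRNA against TGR5 did to these genes. With DMSO, 14 of 30 tested genes differed between siTGR5 and siGFP cells, 3 higher (Adamts20, Mmp16 and Mmp28) and 11 lower, against 28.3% of all 14292 tested genes (13.8% higher and 14.4% lower). With Bu, 17 of 30 differed, 5 higher (Adamts4, Adamts7, Adamts20, Mmp28 and Timp3) and 12 lower, against 30.3% of 13971 genes (13.8% higher and 16.5% lower). The median log2 fold change of the members was -0.10 with DMSO and -0.05 with Bu, beside 0.00 for all genes. Here the Mmp genes were called most often, 9 of 14 with DMSO and 10 of 14 with Bu, and 7 and 9 of these were lower. Each of these comparisons shares its libraries with a Bu comparison.

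**Figure D5:**
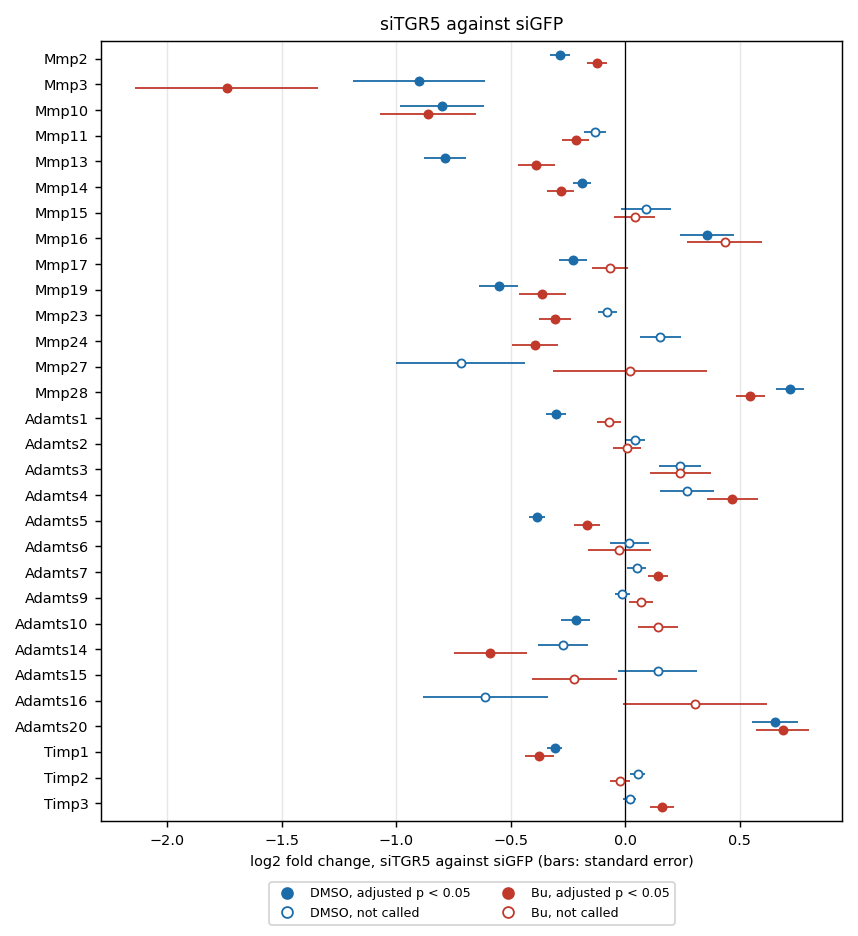
Log2 fold change of siTGR5 against siGFP for the 30 tested genes with DMSO (blue) and with Bu (red), with standard errors as bars and filled points at an adjusted p under 0.05. Mmp3, Mmp10 and Mmp13 lie at the left, and Mmp28 and Adamts20 at the right in both treatments.

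The collagenase and stromelysins of the chromosome 9 cluster were lower in siTGR5 cells. Mmp13 stood at 15.9, 14.1, 13.4, 14.1 and 14.5 CPM in siGFP DMSO and 10.3, 8.96, 8.08, 7.85 and 6.53 CPM in siTGR5 DMSO, where it fell by 42.03% without overlap (log2 fold change -0.79, SE 0.09, adjusted p = 9.29e-06). With Bu it stood at 11.7, 13.5, 11.9 and 11.2 CPM and 9.85, 8.81, 9.87 and 8.65 CPM, also without overlap (log2 fold change -0.39, SE 0.08, adjusted p = 0.00209). Mmp10 (stromelysin-2), near the lower end of detection, stood at 1.47, 0.852, 1.37, 1.43 and 1.31 CPM in siGFP DMSO and 0.955, 0.644, 0.849, 0.723 and 0.528 CPM in siTGR5 DMSO, where siGFP replicate 2 lay within the siTGR5 range (log2 fold change -0.80, SE 0.18, adjusted p = 0.00364). With Bu it stood at 1.58, 2.23, 1.35 and 1.57 CPM and 0.801, 1.04, 1.203 and 0.771 CPM, without overlap (log2 fold change -0.86, SE 0.21, adjusted p = 0.00591). Mmp3 (stromelysin-1) stood at 0.737, 0.984, 0.438 and 0.554 CPM in siGFP Bu and 0.258, 0.0719, 0.0802 and 0.343 CPM in siTGR5 Bu, which did not overlap (log2 fold change -1.74, SE 0.40, adjusted p = 0.00426). Mmp3 was under 1 CPM in every library, and the count filter left it out of the comparison within siTGR5 cells. Its siGFP libraries thus carried it through the filter in both siRNA comparisons. With DMSO the groups overlapped at 0.367 to 0.7498 CPM and 0.139 to 0.409 CPM (log2 fold change -0.90, SE 0.29, adjusted p = 0.0274), and the call was lost without siGFP DMSO replicate 2 or 4 or siTGR5 DMSO replicate 4 or 5 (log2 fold change -0.85 to -0.74, adjusted p 0.0554 to 0.0741). The neighbour Mmp27, at a mean of 0.364 CPM over all libraries, passed the test in neither treatment. Its log2 fold changes were -0.72 (SE 0.28, adjusted p = 0.0653) with DMSO and 0.02 (SE 0.34, adjusted p = 0.969) with Bu. The printed promoters of Mmp13, Mmp10 and Mmp3 hold both capital words, and the Mmp27 window holds neither. Among called genes whose windows hold neither word, Mmp14 and Timp1 were lower and Mmp28 and Adamts20 higher in both treatments. The part of the motifs in these levels was not tested.

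Of 21 tested transcription factors known to act on MMP promoters, 9 were lower and none higher in siTGR5 cells with DMSO, and 8 were lower and 2 higher with Bu. Of all tested genes, 14.4% were lower and 13.8% higher with DMSO, and 16.5% and 13.8% with Bu. With DMSO the smallest p were those of the AP-1 component Fosl2 (-0.29, adjusted p = 1.09e-05), the ETS factor Etv4 (-0.80, adjusted p = 1.76e-05) and the zinc finger repressor Snai2 (-0.28, adjusted p = 0.000976). With Bu they were those of the AP-1 component Jund (-1.11, adjusted p = 6.87e-05) and of Egr1, which was higher (0.48, adjusted p = 0.000108). The part of these factors in the levels of the proteases was not tested.

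Mmp2, its activator Mmp14 and the inhibitor Timp1 were lower in siTGR5 cells. Mmp2 stood at 185, 181, 189.8, 189.7 and 181 CPM in siGFP DMSO and 151, 164, 156, 158 and 132 CPM in siTGR5 DMSO, where it fell by 17.9% without overlap (log2 fold change -0.29, SE 0.04, adjusted p = 0.000177). With Bu it also passed the test (log2 fold change -0.12, SE 0.04, adjusted p = 0.0422), but the call was lost under several settings and without siGFP Bu replicate 1, 3 or 4 or siTGR5 Bu replicate 2, 3 or 4 (log2 fold change -0.13 to -0.09, adjusted p 0.0533 to 0.156). Mmp14 stood at 74.95, 75.8, 75.1, 78.04 and 68.6 CPM and 67.5, 68.1, 64.9, 66.3 and 59.9 CPM in the DMSO groups and at 74.9, 75.3, 69.01 and 72.5 CPM and 67.8, 59.4, 60.4 and 54.5 CPM in the Bu groups, without overlap in either (log2 fold change -0.19, SE 0.04, adjusted p = 0.00274 and log2 fold change -0.28, SE 0.06, adjusted p = 0.0022). Timp1 (chrX:20870166-20874735) stood at 47.1, 45.9, 46.2, 44.7 and 47.04 CPM in siGFP DMSO and at 37.3, 37.7, 37.1, 36.7 and 38.1 CPM in siTGR5 DMSO, and fell by 19.2% (log2 fold change -0.31, SE 0.03, adjusted p = 3.03e-06). With Bu it fell by 22.9% (log2 fold change -0.38, SE 0.06, adjusted p = 0.000497), and each siTGR5 library was below each siGFP library in both treatments. Timp2 did not pass the test in either (0.05 and -0.02). Timp3 was called higher in siTGR5 cells with Bu (log2 fold change 0.16, SE 0.05, adjusted p = 0.0314), a call lost without siGFP Bu replicate 3 or siTGR5 Bu replicate 2, 3 or 4 (0.15 to 0.16, adjusted p 0.057 to 0.0807).

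Mmp28 (chr11:83440768-83463071), an MMP best known from keratinocytes and testis, had the largest rise of the 30 tested members with DMSO. It stood at 15.5, 14.8, 15.5, 14.9 and 12.6 CPM in siGFP DMSO and 23.2, 23.99, 24.8, 26.2 and 22.1 CPM in siTGR5 DMSO, a rise of 64.4% (log2 fold change 0.72, SE 0.06, adjusted p = 3.44e-07). With Bu it stood at 13.7, 13.4, 12.3 and 13.6 CPM in siGFP cells and 19.8, 20.3, 20.01 and 18.1 CPM in siTGR5 cells (log2 fold change 0.55, SE 0.06, adjusted p = 2.26e-05), and neither treatment showed an overlap. Adamts20 rose from 3.35, 2.59, 2.71, 3.303 and 2.98 CPM to 5.05, 5.07, 4.73, 4.896 and 3.92 CPM with DMSO (log2 fold change 0.65, SE 0.10, adjusted p = 0.000125) and from 2.21, 2.43, 2.01 and 2.25 CPM to 3.59, 3.38, 3.69 and 3.798 CPM with Bu (log2 fold change 0.69, SE 0.11, adjusted p = 0.000432), again without overlap. Thus it was lower with Bu and higher with siTGR5. Mmp16 had the same signs, and its rise in siTGR5 DMSO (log2 fold change 0.36, SE 0.12, adjusted p = 0.0326) was lost without any of siGFP DMSO replicates 2 to 5 or siTGR5 DMSO replicates 1, 4 and 5 (0.31 to 0.37, adjusted p 0.0523 to 0.0838) and did not pass with Bu (log2 fold change 0.43, SE 0.16, adjusted p = 0.0574).

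The hyalectanases Adamts5 and Adamts1 were lower in siTGR5 cells with DMSO. From the values given above for Adamts5, every siTGR5 DMSO library was below every siGFP DMSO library, and its fitted level fell by 23.5% (log2 fold change -0.39, SE 0.03, adjusted p = 5.51e-07). Adamts1 stood at 322, 307, 333, 293 and 319 CPM and 256, 282, 251, 251 and 238 CPM, without overlap (log2 fold change -0.30, SE 0.04, adjusted p = 6.53e-05), and with Bu at 301, 283, 307 and 331 CPM and 274, 302, 287 and 311 CPM, where the groups overlapped (log2 fold change -0.07, SE 0.05, adjusted p = 0.336). For Adamts5 the difference with Bu passed the test (log2 fold change -0.17, SE 0.06, adjusted p = 0.0396), but not without siGFP Bu replicate 1, 3 or 4 or siTGR5 Bu replicate 1, 2 or 3 (-0.19 to -0.12, adjusted p 0.0501 to 0.127). Mmp19, an MMP of broad tissue expression, fell from a range of 5.28 to 6.31 CPM to a range of 3.68 to 4.59 CPM with DMSO (log2 fold change -0.55, SE 0.09, adjusted p = 0.000166) and from a range of 5.13 to 5.62 CPM to a range of 3.56 to 4.73 CPM with Bu (log2 fold change -0.36, SE 0.10, adjusted p = 0.0142), without overlap. Its exons share 789 bases (22.3%) with Tmem198b on the opposite strand, which had a log2 fold change of -0.10 with DMSO (SE 0.04, adjusted p = 0.0983). Mmp17 and Adamts10 were lower with DMSO, with log2 fold changes of -0.23 (adjusted p = 0.00951) and -0.22 (adjusted p = 0.0148), and did not pass the test with Bu.

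With Bu, 7 members passed the test that had not with DMSO, a contrast that the difference of effects below tests. For none of them was that difference called. Apart from Mmp24, they had the same sign with DMSO, at log2 fold changes of -0.13 (Mmp11), -0.27 (Adamts14), 0.27 (Adamts4), -0.08 (Mmp23), 0.05 (Adamts7) and 0.02 (Timp3), with adjusted p of 0.0534 to 0.645. The share of all genes called with Bu and not with DMSO is not given here. Mmp24 stood at the values given above, with every siTGR5 Bu library below every siGFP Bu library (log2 fold change -0.39, SE 0.10, adjusted p = 0.00854). The overlapping BC029722 was lower in the same comparison (log2 fold change -0.35, SE 0.06, adjusted p = 0.000864), and also with DMSO (-0.48, SE 0.05, adjusted p = 6.57e-06), where Mmp24 had 0.15 (SE 0.09, adjusted p = 0.214). Mmp23 went from a range of 46.8 to 60.5 CPM to a range of 40.00 to 45.3 CPM (log2 fold change -0.31, SE 0.07, adjusted p = 0.00377) and Mmp11, stromelysin-3, from a range of 37.00 to 41.6 CPM to a range of 30.2 to 36.5 CPM (log2 fold change -0.22, SE 0.06, adjusted p = 0.0131), both without overlap. Adamts14 stood at 3.05, 3.38, 2.23 and 2.89 CPM in siGFP Bu and 2.38, 1.94, 1.88 and 1.54 CPM in siTGR5 Bu, where siTGR5 replicate 1 lay above siGFP replicate 3 (log2 fold change -0.59, SE 0.16, adjusted p = 0.0123). The aggrecanase Adamts4 stood at 2.47, 2.53, 2.48 and 2.74 CPM and 3.695, 3.27, 3.85 and 3.45 CPM, higher in each siTGR5 library (log2 fold change 0.47, SE 0.11, adjusted p = 0.00529). Adamts7 was higher by 0.14 (SE 0.04, adjusted p = 0.0251), and not called without siGFP Bu replicate 3 or siTGR5 Bu replicate 1 (0.11 to 0.14, adjusted p 0.0619 to 0.0832).

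The remaining 9 tested members, Adamts2, Adamts3, Adamts6, Adamts9, Adamts15, Adamts16, Mmp15, Mmp27 and Timp2, passed the test between the siRNAs in neither treatment. Without the rod transcript libraries, 11 of the 14 calls with DMSO were kept, and Adamts10, Mmp10 and Mmp16 were lost at log2 fold changes of -0.21, -0.72 and 0.39 (adjusted p 0.0539, 0.0511 and 0.0831). With Bu only 2 libraries per group remained, and 7 of 17 calls were kept. Lost were Adamts4, Adamts5, Adamts7, Adamts14, Mmp2, Mmp3, Mmp10, Mmp11, Mmp24 and Timp3, all with unchanged signs (adjusted p 0.0684 to 0.132). Of 22 tested substrates, 11 were lower and 1 higher in siTGR5 cells with DMSO, with fibronectin (Fn1, -0.44), fibrillin-1 (Fbn1, -0.56) and biglycan (Bgn, -0.40) at the smallest p, and 3 were lower and 2 higher with Bu (Mmp2 is among those lower in both treatments). The sheddase Adam10 was lower, with log2 fold changes of -0.53 (adjusted p = 2.98e-09) with DMSO and -0.60 (adjusted p = 7.67e-07) with Bu. The fibroblast markers summed to 5123 to 5335 CPM in siGFP DMSO and 4444 to 4707 CPM in siTGR5 DMSO, and 4 of the 5 tested were lower there, Acta2 by the most (log2 fold change -1.24, adjusted p = 2.59e-08). With Bu, Acta2 and Pdgfra were lower. Lyz2 was higher and Cd68 lower in siTGR5 cells in both treatments, and Cd14 lower with Bu. Of the Sertoli markers none was called with DMSO, while Wt1 and Inha were higher and Sox9 lower with Bu. The markers' part in these differences was not tested.

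The last comparison asked whether the Bu effect itself differed between siTGR5 and siGFP cells. Of 30 tested members none was called by edgeR's quasi-likelihood test (background 1.37% of 14783 genes), 9 had an unadjusted p under 0.05, and DESeq2 called 2 (Adamts1 and Mmp24). The 1.37% is a share at the adjusted limit, and the share of all genes at the unadjusted limit is not given here. The member nearest to a call was Mmp24, whose Bu effect was lower in siTGR5 cells (difference on the log2 scale -0.54, SE 0.14, adjusted p = 0.0547). It passed with DESeq2 (-0.54, adjusted p = 0.0111), with a filter at a mean of 1 CPM (-0.54, adjusted p = 0.0482), with no filter on low counts (-0.53, adjusted p = 0.00548), and without siGFP DMSO replicate 2 or siGFP Bu replicate 4 (both -0.59, adjusted p 0.031 to 0.0328). It did not pass with a replicate block (-0.54, adjusted p = 0.0537) or without the rod transcript libraries (-0.44, adjusted p = 0.343). Its overlapping gene BC029722 had a difference of 0.14 (SE 0.09, adjusted p = 0.560).

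For 4 other members the Bu effect was fitted as higher in siTGR5 cells, without passing the test. These were the hyalectanases Adamts1 (log2 fold change 0.24, SE 0.07, adjusted p = 0.0899) and Adamts5 (log2 fold change 0.23, SE 0.07, adjusted p = 0.0998), the collagenase Mmp13 (log2 fold change 0.41, SE 0.13, adjusted p = 0.135) and Adamts10 (log2 fold change 0.37, SE 0.12, adjusted p = 0.135). With Adamts1, for example, Bu went with log2 fold changes of -0.03 in siGFP cells and 0.21 in siTGR5 cells. All 4 passed with no filter on low counts (adjusted p 0.00457, 0.0104, 0.0202 and 3.56e-05). Without the rod transcript libraries none of them passed (log2 fold change 0.29, 0.25, 0.28 and 0.43, adjusted p 0.182, 0.14, 0.639 and 0.215, in the same order). Adamts1 also passed without siGFP Bu replicate 4, siTGR5 DMSO replicate 2 or siTGR5 Bu replicate 1 (0.27 to 0.28, adjusted p 0.0371 to 0.0457), Adamts5 without siGFP Bu replicate 4 or siTGR5 Bu replicate 1 (0.26 to 0.27, adjusted p 0.0282 to 0.0461), and Mmp13 without siTGR5 DMSO replicate 1 (0.49, adjusted p = 0.0442). Members whose fitted Bu effects differed little between the 2 populations were Adamts2 (-0.03, SE 0.08), Adamts3 (0.01, SE 0.15), Adamts20 (0.04, SE 0.14) and Mmp15 (-0.04, SE 0.15). With these standard errors, equal effects are not shown.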

How the data were processed

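The 42 genes and the lists of related genes were chosen with earlier results of these data known. The authors prepared stranded poly(A) libraries, mapped the reads to the mouse genome (mm10), and counted uniquely aligned reads per Ensembl gene with HTSeq. Bowtie2 2.1.0, bcl2fastq 2.17.1.14 and DESeq2 1.0.19 appear among the tools in the submitters' notes on processing. The deposited table holds raw read counts, which were tested here, and the authors' normalized signal divided by median transcript length in kilobases. The latter was used only to compare levels between genes. Its columns of the authors' own fold changes and p-values were not used. Of the 42 identifiers, 42 are in GENCODE M21, 41 with the same coordinates. Counts of members whose exons overlap another gene are uncertain where the counting did not use the strand, and not every such overlap is reported here.

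The count tests ran in edgeR 4.0.16 under R 4.3.3 (TMM factors, filterByExpr with a minimum count of 10 and a minimum total of 15, quasi-likelihood F-test) and Benjamini-Hochberg adjustment over all genes tested. Calls were made below an adjusted p of 0.05. Bu was compared with DMSO within each siRNA, siTGR5 with siGFP within each treatment, and the difference of the Bu effects was tested over all 18 libraries. Standard errors were the log2 fold change over the square root of F. The script was tested on simulated counts. Members named are those at a mean of 1 CPM or more or called in any comparison, with 3 genes of smallest p per related list and further genes where a result turned on them. Alternatives were DESeq2 1.42.0, RLE factors, other filters, all libraries in 1 fit, a stricter threshold, a replicate block, leaving out each library, and leaving out 7 libraries with rod transcripts. No 2 libraries of a group were duplicates (lowest chi-square per degree of freedom 3.17). Figures were drawn with matplotlib 3.10.9 in Python 3.11.15.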

Additional observations from a re-analysis of the deposited data

Results flagged for a closer look

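In 7 of 112 gene and group combinations, 1 library lay far from the others by Dixon's ratio (its gap to the nearest library over the whole range of the group), where chance gives about 1 in 20. In siGFP DMSO replicate 2, Adamts15 was at 1.64 CPM against 1.06 to 1.20 CPM in the others (ratio 0.747) and Mmp10 at 0.852 against 1.31 to 1.47 CPM (0.744). In siGFP DMSO replicate 5, Mmp28 was at 12.6 against 14.8 to 15.5 CPM (0.772). Mmp15 was low in siGFP Bu replicate 4, at 8.87 against 11.2 to 11.6 CPM (0.84), and in siTGR5 DMSO replicate 5, at 6.004 against 8.38 to 9.04 CPM (0.78). In siTGR5 DMSO replicate 2 Adamts6 was at 7.70 against 6.05 to 6.37 CPM (0.807), and in siTGR5 Bu replicate 1 Adamts7 was at 66.4 against 60.0 to 60.8 CPM (0.882).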

How the results depend on the processing

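The settings tried changed no sign among the 72 gene results followed. These were the calls of the 4 Bu and siRNA comparisons and the 9 differences of the Bu effect with an unadjusted p under 0.05. They were picked by their p in these same libraries, so a change of sign was unlikely from the start. The members called with Bu in siGFP cells went from 15 to 8 (1 higher, 7 lower) under a stricter threshold, which took the study's p with the size limit of its methods, and to 9 without the rod transcript libraries. Under the stricter threshold 6 were called with Bu in siTGR5 cells, 6 with siTGR5 in DMSO and 8 with siTGR5 in Bu, and the last count was 7 without the rod transcript libraries. Leaving out 1 library gave 13 to 16, 16 to 18, 12 to 15 and 13 to 17 members in these 4 comparisons. For the difference of the Bu effect, 0 members were called, and also 0 without the rod transcript libraries. The count was 2 with DESeq2, 5 with no filter on low counts, 1 with a filter at a mean of 1 CPM, and 0 to 3 when 1 library was left out. The cause was not tested. The shares of all genes called under the other settings of this section are not given here, so the counts describe only the members. The call of Mmp2 with siTGR5 in Bu was also lost with no filter (adjusted p = 0.070) and at a mean of 1 CPM (adjusted p = 0.0523), and that of Timp1 with Bu in siTGR5 cells with no filter (adjusted p = 0.0686).

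Libraries with the same replicate number did not deviate together, with correlations of their deviations from -0.157 to 0.222, -0.243 to 0.0748, -0.173 to 0.174 and -0.127 to 0.288 in the 4 comparisons. A replicate block called 15, 17, 15, 16 and 0 members in the 5 comparisons. It lost the calls of Adamts6 with Bu in siTGR5 cells (log2 fold change -0.30, adjusted p = 0.0753) and of Mmp2 with siTGR5 in Bu (-0.12, adjusted p = 0.0657). Depth limits the members under a mean of 1 CPM, of which 12 were not tested and, of Adamts16, Mmp27 and Mmp3, Mmp3 alone was called.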
